A study of Mus musculus with 12 samples.

Results

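The exons described here are 2752 cassette exons longer than 27 nt whose length is divisible by 3, so that their inclusion or skipping keeps the reading frame of a coding transcript. They were taken from a table of 401633 splicing events by 3 conditions: a length of 28 nt or more that is a multiple of 3, an inclusion value in all 12 libraries, and a mean inclusion over the 12 libraries between 2% and 98%. Of the 160750 cassette exons in the table, 63811 met the condition on length and 26640 of these had a value in every library. A mean over 98% removed 23861 exons and a mean under 2% removed 27. The 2752 exons lie in 1919 genes and are part of the 28980 events of all types that were tested together. The exons were thus selected on their mean inclusion over all 12 libraries, and their level is given as a description. Exons of Gpatch4 and Meis2 lay just inside the lower bound at 2.02%, and exons of Ncam1 at 1.94% and Smarca4 at 1.96% lay just outside it. At the upper bound, exons of Slc9a8 and Mtmr4 at 97.99% lay inside, and those of Ehmt1 at 98.00% and Fam173a at 98.01% lay outside. At the bound on length, 23 exons of 30 nt were inside and 26 exons of 27 nt were outside.

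The libraries came from polyA RNA of N2a Flp-In rtTA cells, a mouse neuroblastoma line with a docking site for transgenes, in which every group carried a FLAG-tagged, siRNA-resistant Sap30bp cDNA that doxycycline induces. In 1 line, the exon-3-lacking line or lacking line, the cDNA had no exon 3 of Sap30bp, and in the other, the exon-3-containing line or containing line, it held that exon. In each line the rescue group received an siRNA against Sap30bp and doxycycline, the knockdown group received that siRNA without doxycycline, and the control group received a non-targeting siRNA pool without doxycycline. Each of the 6 groups had 2 replicates labelled biological, each made of combined wells harvested at 72 hours, with the medium changed at 24 hours. Doxycycline was never given with the control siRNA, so the effect of doxycycline and that of the induced isoform cannot be told apart, nor can isoform and line. The labels do not say whether a line is 1 clone or whether the replicates were separate cultures, so the p-values measure the spread between these libraries. In the authors' deposited table, 13 of 16 neuroblastoma and neuron markers were at 1 RPKM (reads scaled to gene length and library size) or more in every group and 0 of 10 fibroblast markers were, with Col3a1, Fap and Twist1 at 0. The summed RPKM per group in the authors' deposited table was 1121 to 1575 for the neuroblastoma and neuron list and 1.58 to 4.28 for the fibroblast list, and 2 of 10 glial and immune markers reached 1 RPKM in every group. No read numbers accompany the inclusion values, so the depth behind them is unknown and counting intervals are not given.

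A cassette exon is joined to its neighbours or left out when the spliceosome pairs splice sites across the introns on either side of it. U1 snRNA pairs with the downstream splice site, including the last bases of the exon itself, and the polypyrimidine tract and 3' splice site upstream of it are read by the U2AF dimer and its partners. SAP30BP is a nuclear protein known in human cells to act with RBM17 in the splicing of short introns. An exon that keeps the frame changes a coding transcript by whole codons, and such exons are often used to make protein isoforms that differ between neurons and other cells.

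Exon sequences are shown for the exons on which the results below turn, with the last 3 bases of the exon, its share of the downstream splice site, in capitals. They were sliced from GENCODE M21 transcripts that match the exon's length and both flanking introns, and the coordinates are those of the deposited table on mm9. Exon 3 of Sap30bp distinguishes the induced cDNAs (48 nt, plus strand, chr11:115799324-115799371).
Sap30bp exon 3: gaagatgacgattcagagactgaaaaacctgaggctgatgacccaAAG
Exons of Med25 (72 nt, minus strand, chr7:52135937-52136008), Mink1 (111 nt, plus strand, chr11:70422091-70422201) and Ehmt2 (102 nt, plus strand, chr17:35042555-35042656) were included less after knockdown.
Med25: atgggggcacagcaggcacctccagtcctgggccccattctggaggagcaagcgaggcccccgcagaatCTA
Mink1: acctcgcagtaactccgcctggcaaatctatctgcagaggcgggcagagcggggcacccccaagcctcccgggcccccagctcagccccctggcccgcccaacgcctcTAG
Ehmt2: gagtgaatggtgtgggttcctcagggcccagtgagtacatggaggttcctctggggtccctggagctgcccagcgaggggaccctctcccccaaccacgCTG
Exons of Madd (54 nt, minus strand, chr2:91000474-91000527) and Mbnl1 (54 nt, plus strand, chr3:60418605-60418658) were included more.
Madd: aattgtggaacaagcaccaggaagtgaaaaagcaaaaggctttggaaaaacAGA
Mbnl1: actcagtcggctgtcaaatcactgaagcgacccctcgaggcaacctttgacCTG
P4ha2 holds a neighbouring pair that moved in opposite directions (60 nt, plus strand, chr11:53939740-53939799, and 66 nt, plus strand, chr11:53939848-53939913).
P4ha2 60 nt: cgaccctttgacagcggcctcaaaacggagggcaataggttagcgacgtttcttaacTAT
P4ha2 66 nt: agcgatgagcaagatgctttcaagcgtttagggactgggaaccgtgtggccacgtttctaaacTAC
All 8 are annotated as coding in the matched transcript. The exons of Med25, Mink1 and Ehmt2 hold 65.3%, 70.3% and 64.7% G and C, and those of Madd and Mbnl1 hold 38.9% and 55.6%.

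Inclusion is given as percent spliced in, the percent of transcripts with the exon, and differences are in percentage points. Most of the 2752 exons were in the majority of transcripts. A mean over 80% was found for 1850 exons (67.2%), a mean of 20% to 80% for 601 (21.8%) and a mean under 20% for 301 (10.9%). The median length was 108 nt, with a range of 30 to 5292 nt. The median inclusion of a library lay between 90.7% and 93.5%, and replicates of a group differed by a median of 2.35 to 2.94 points. Of the 2752 exons, 2161 matched a GENCODE exon, and 1855 of these were coding there.

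The targeted gene was examined first. For Sap30bp the authors' deposited table lists 196.5 RPKM after rescue, 21.7 RPKM after knockdown and 40.03 RPKM in control for the lacking line. Values for the containing line in the authors' deposited table are 141.3 RPKM after rescue, 18.6 RPKM after knockdown and 33.6 RPKM in control. Knockdown over control had a log2 fold change of -0.63 (FDR 0.067) in the lacking line and of -0.60 (FDR 0.068) in the containing line in the authors' deposited table, and neither passed an FDR of 0.05.

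Inclusion of Sap30bp exon 3 after rescue differed between the lines as their cDNAs do. In the lacking line its inclusion was 11.7% and 5.87% in the rescue replicates, 74.3% and 67.9% in the knockdown replicates, and 90.9% and 90.0% in the control replicates. In the containing line it was 98.8% and 99.2% after rescue, 96.3% and 96.8% after knockdown, and 94.0% and 95.8% in control. The groups of the lacking line did not overlap, with rescue far below the other groups, while every library of the containing line was above 94%. Reads from the induced cDNA count toward this exon, so the rescue values describe transgene and endogenous transcripts together. Every group carried the cDNA, so any reads from it without doxycycline cannot be told apart from endogenous reads in the knockdown and control values. Rescue minus knockdown was -62.3 ± 3.01 points (SE) in the lacking line, with a limma Benjamini-Hochberg adjusted p of 9.56e-06. It was 2.44 ± 3.01 points in the containing line (limma adjusted p = 0.946), and the difference between the lines was -64.8 ± 4.26 points (limma adjusted p = 0.000261). Knockdown minus control was -19.3 ± 3.01 points in the lacking line (limma adjusted p = 0.0598; 0.0453 for the mean of both lines, where the difference of -8.82 points is under the 15 points required).

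**Figure D1:**
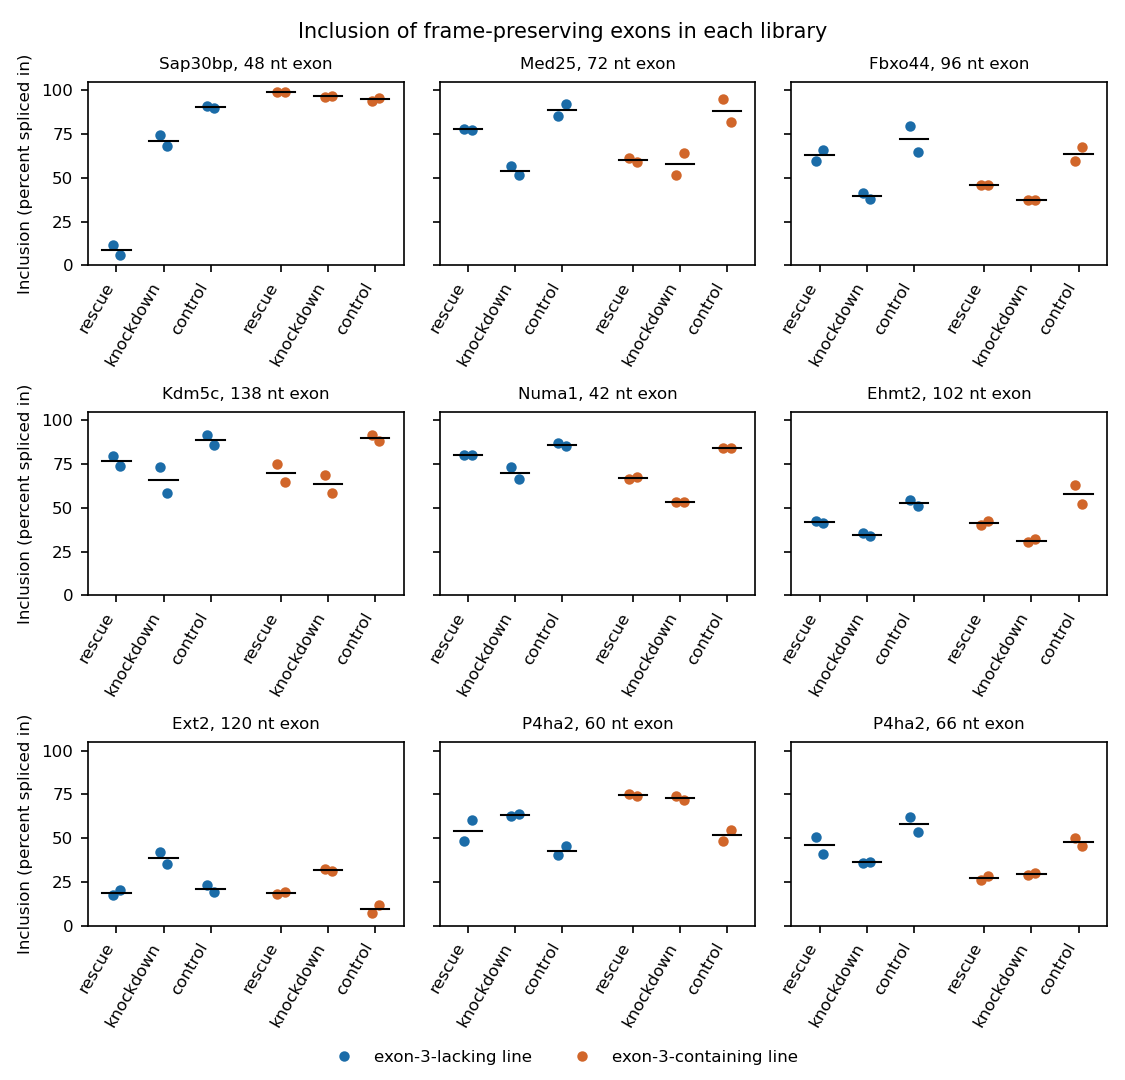
Inclusion of 9 exons in percent spliced in (vertical axis) in each library, with the rescue, knockdown and control groups of the exon-3-lacking line in blue and of the exon-3-containing line in orange; points are the 2 replicates and bars their mean. In both lines the knockdown points of the Med25, Fbxo44, Kdm5c, Numa1 and Ehmt2 exons and of the 66 nt exon of P4ha2 lie below the control points, and those of Ext2 and the 60 nt exon of P4ha2 lie above them.

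Knockdown against control was compared over both lines to ask which exons change when Sap30bp is depleted. A total of 68 exons in 62 genes passed a limma Benjamini-Hochberg adjusted p of 0.05 with a difference of at least 15 points: 50 were included less and 18 more after knockdown. These are 2.47% of the 2752 exons, beside 1.48% of all tested events, 1.64% of 3791 cassette exons over 27 nt that do not keep the frame (54 lower, which is 1.42%, and 8 higher, which is 0.211%) and 3.08% of 195 microexons. By direction, 1.82% of the frame-preserving exons fell beside 0.483% of all tested events, and 0.654% rose beside 1.0%. The background of events that rose consists mostly of introns, of which 254 of 17096 (1.49%) were retained more. The median difference was -0.52 points over the 2752 exons, -0.68 points over the exons that do not keep the frame and 0.39 points over all tested events. The difference between the exon classes was not tested. The number of calls depended on single libraries: it was 24 without the first control replicate of the lacking line, 30 without the first control replicate of the containing line and 38 without the second knockdown replicate of the lacking line. Of the 68 exons, 21 remained called whichever 1 of the 12 libraries was left out, among them the exons of Med25, Fbxo44, Kdm5c, Numa1, Mink1, Ehmt2 and Ext2 and the 60 nt exon of P4ha2. All 68 are also called for knockdown in at least 1 line by the authors' deposited table of events, which calls 131 of the 2752 exons in either line. Those calls were made on the same 12 libraries, and a mean of 15 points needs 15 points in at least 1 line. The overlap is therefore no separate support.

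The largest fall was in an exon of Med25, which encodes a subunit of the Mediator complex that links transcription factors to RNA polymerase II. Its inclusion was 56.6% and 51.3% after knockdown, against 85.1% and 92.1% in control, in the lacking line, and 51.5% and 64.4% after knockdown, against 94.9% and 81.7% in control, in the containing line. All knockdown libraries were below all control libraries, and the difference was -32.5 ± 3.61 points (limma adjusted p = 0.00297). The exon of 96 nt in Fbxo44, an F-box subunit of ubiquitin ligases, was at 41.1%, 37.7%, 37.3% and 37.5% in the knockdown libraries, against 79.8%, 64.8%, 59.8% and 67.7% in the control libraries. Its groups did not overlap in either line, and it fell by 29.6 ± 3.72 points (limma adjusted p = 0.00419). Numa1 encodes a protein that anchors microtubules at spindle poles, and its 42 nt exon was at 73.2%, 66.7%, 53.3% and 53.2% in the knockdown libraries, against 87.2%, 85.3%, 84.5% and 84.3% in the control libraries. The 2 knockdown libraries of the containing line were lowest and the control libraries spanned less than the knockdown libraries, with a difference of -23.7 ± 2.05 points (limma adjusted p = 0.00103). The 111 nt exon of Mink1, a kinase of the Ste20 family whose sequence is given above, was at 56.7%, 45.5%, 46.9% and 49.5% in the knockdown libraries, against 69.3%, 58.1%, 83.0% and 82.1% in the control libraries. Its controls differed between the lines, being lower in the lacking line, and its mean difference was -23.5 ± 3.39 points (limma adjusted p = 0.00589).

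The 87 nt exon of Smpd4, a neutral sphingomyelinase, averaged 37.9% after knockdown and 65.6% in control. The 183 nt exon of Pla2g6, a phospholipase A2, averaged 63.3% after knockdown and 86.2% in control. Exons of Cep164, a protein of the centriole's distal appendages, and of Mdm1, a centriolar microtubule-binding protein, averaged 18.4% and 52.1% after knockdown, against 43.6% and 75.9% in control. All 4 passed the limma test, with adjusted p-values of 0.0067, 0.00815, 0.00824 and 0.00647. The zinc finger gene Zfp187 held a pair of called exons, of 318 nt at 51.2% after knockdown against 79.0% in control, and of 60 nt at 59.9% after knockdown against 83.8% in control. An exon of 141 nt in Ng23 (Sapcd1 in GENCODE) averaged 30.6% after knockdown and 56.4% in control, and an exon of 54 nt in Dos (Cbarp in GENCODE, a regulator of calcium channels) averaged 55.2% after knockdown and 80.5% in control. The Dos exon was annotated in a transcript that GENCODE marks for nonsense-mediated decay, the pathway that degrades transcripts with an early stop. In all, 6 genes held 2 called exons each, namely Zfp187, Bptf, Pwwp2a, Mff, Thap7 and P4ha2, so the 68 exons are not independent of each other.

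Exons included more after knockdown came from genes of several functions. The 54 nt exon of Madd, an exchange factor for Rab3 with roles in vesicle release and cell survival, was at 71.0%, 80.6%, 64.95% and 67.6% in the knockdown libraries, against 48.2%, 71.1%, 31.2% and 46.3% in the control libraries. One control library of the lacking line lay within the range of the knockdown libraries, and the difference was 21.8 ± 5.04 points (limma adjusted p = 0.0391). The 120 nt exon of Ext2, a glycosyltransferase that makes heparan sulfate, lies in the untranslated part of its matched transcript. It was at 41.9%, 35.2%, 32.5% and 31.0% in the knockdown libraries, against 23.2%, 19.2%, 7.46% and 11.6% in the control libraries, without overlap and with a difference of 19.8 ± 2.86 points (limma adjusted p = 0.00581). Other exons that rose averaged 50.9% after knockdown and 29.9% in control for Ssbp3, a cofactor of LIM-domain transcription, 57.2% and 38.7% for Rbbp6, a ubiquitin ligase, 43.3% and 25.3% for Arhgef10l, a guanine nucleotide exchange factor, and 56.6% and 38.7% for Dmwd, with the knockdown mean given before the control mean for each. Their limma adjusted p-values were 0.0426, 0.0283, 0.0247 and 0.0125. Calls of rises were often lost with 1 library left out: that of Ssbp3 without 10 of the 12 libraries, that of Madd without 9, that of Rbbp6 without 7, that of Arhgef10l without 6 and that of Dmwd without 3.

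A neighbouring pair of exons in P4ha2, which encodes a catalytic subunit of collagen prolyl 4-hydroxylase, moved in opposite directions. The pair was singled out after its values had been seen. The 60 nt exon was at 62.5%, 63.7%, 74.0% and 72.0% in the knockdown libraries, against 40.1%, 45.4%, 48.3% and 54.8% in the control libraries. The 66 nt exon, which begins 48 bases after the end of the other, was at 35.9%, 36.6%, 29.0% and 30.2% in the knockdown libraries, against 62.3%, 53.7%, 50.3% and 45.3% in the control libraries. Neither exon showed overlap between the groups, and the sum of both inclusion values stayed between 98.4% and 103.0% in all 12 libraries. The 60 nt exon rose by 20.9 ± 3.17 points (limma adjusted p = 0.00778) and the 66 nt exon fell by 19.99 ± 3.42 points (limma adjusted p = 0.0119). As the sequences above show, both end in TA followed by a pyrimidine, and the values of the pair are not independent.

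**Figure D2:**
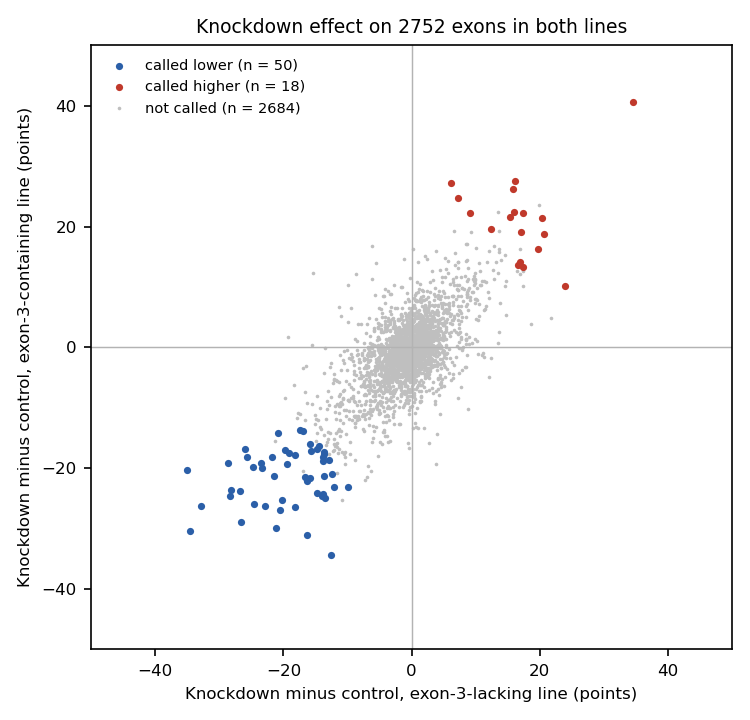
Knockdown minus control in percentage points in the lacking line (horizontal axis) and in the containing line (vertical axis) for each of the 2752 exons; blue points are the 50 exons called lower, red points the 18 called higher and grey points those not called. Called exons lie in the lower left and upper right corners. The calls were made on the mean of both axes.

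Some host genes fell into 5 lists by function, which were chosen with earlier results of these data known. Their counts stand beside 1.82% of all 2752 exons called lower and 0.654% called higher, and these shares were not tested. Among chromatin and transcription genes, 5 of 68 exons fell and 0 rose, with a median difference of -1.61 points, beside -0.52 points over all 2752 exons. They belong to Bptf, the largest subunit of the NURF remodeller (189 nt, 32.0% after knockdown against 58.5% in control, and 186 nt, 25.2% against 40.6%), Kdm5c, a demethylase of histone H3 (138 nt), Ehmt2, the methyltransferase G9a (102 nt), and Mll3, a histone H3 methyltransferase (213 nt, 63.5% after knockdown against 79.4% in control). Inclusion of the Kdm5c exon was 73.6%, 58.4%, 68.7% and 58.5% in the knockdown libraries, against 91.7%, 85.9%, 91.7% and 88.0% in the control libraries. The Ehmt2 exon was at 35.5%, 33.9%, 30.6% and 32.1% in the knockdown libraries, against 54.8%, 50.9%, 63.3% and 52.2% in the control libraries. For both exons the groups were apart in each line, and they fell by 24.5 ± 3.83 and 22.3 ± 3.22 points (limma adjusted p = 0.00841 and 0.00581). Both calls held with any 1 library left out, whereas that of Mll3 was lost without 10 of the 12 libraries and those of the Bptf exons without 3 and 5.

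Among kinases, phosphatases and regulators of small GTPases, 2 of 74 exons fell and 0 rose, with a median of -1.61 points. Beside Mink1, this was the 144 nt exon of Arhgef40, a guanine nucleotide exchange factor. It was at 36.3% after knockdown and 61.8% in control (limma adjusted p = 0.0192). Its call was lost in 5 of 12 fits with 1 library left out. Among cytoskeleton and motor genes, 2 of 94 exons fell and 3 rose, with a median of -0.17 points. With 1 library left out, the calls of Kif13a, Epb4.1l2 and Spna2 were lost in 7, 9 and 3 of 12 fits. The falls were in Numa1 and in the kinesin Kif13a (39 nt, 34.4% after knockdown against 55.8% in control). The rises included Spna2, the alpha chain of spectrin (60 nt, 76.6% after knockdown against 57.3% in control). They also included the spectrin-binding protein gene Epb4.1l2 (54 nt, 53.9% after knockdown against 36.9% in control). Control inclusion of the Epb4.1l2 exon was 21.5% in the lacking line and 52.3% in the containing line. Its rise was 23.9 and 10.2 points in the same order. Among genes of membrane traffic and the synapse, 1 of 102 exons fell and 2 rose, with a median of 0.10 points. The fall was in the clathrin assembly gene Snap91 (84 nt, 64.6% after knockdown against 84.1% in control). The rises were in Madd and in Bin1, which encodes a membrane-bending protein (108 nt, 72.5% after knockdown against 52.9% in control). Leaving out 1 library lost the calls of Snap91 and Bin1 in 3 and 5 of 12 fits.

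Among splicing and RNA-binding proteins, 1 of 37 exons rose and 0 fell, with a median of 0.62 points. It was the 54 nt exon of Mbnl1, itself a regulator of alternative exons, at 61.2%, 62.2%, 71.4% and 66.4% in the knockdown libraries, against 45.4%, 53.1%, 48.2% and 50.5% in the control libraries. The groups did not overlap, and the difference was 15.99 ± 3.78 points (limma adjusted p = 0.0428). The call was lost without 10 of the 12 libraries, each left out in turn. The remaining 36 exons of the list did not pass.

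The called exons were next set against further features. Of these, exon length and inclusion level were also bounded in the choice of exons, and the others were not used there. Exons that fell often had a short intron beside them. The shorter of both flanking introns had a median of 297.5 nt for the 50 exons called lower, 802 nt for the 18 called higher and 1250.5 nt for all 2752 exons. It was under 200 nt for 19 of 50 exons called lower, for 2 of 18 called higher and for 351 of all 2752. Seen the other way, 19 of 351 exons with such an intron were called lower (5.41%), 18 of 867 with a shorter intron of 200 nt or more but under 1000 nt (2.08%) and 13 of 1534 with both introns at 1000 nt or more (0.847%). Exons called higher made up 0.57%, 1.04% and 0.456% of the same classes. Cassette exons that do not keep the frame showed 5.26%, 1.46% and 0.419% called lower in these classes, so the gradient was present with and without preservation of the frame. No test was made of these shares. The introns beside the exon of Fbxo44 measured 89 and 113 nt, those of Mink1 162 and 140 nt, those of Kdm5c 162 and 180 nt, and those of Ehmt2 153 and 198 nt. The exons of Smpd4, with introns of 3424 and 2927 nt, and of Cep164, with introns of 2396 and 5046 nt, are among the largest falls without a short intron beside them.

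**Figure D3:**
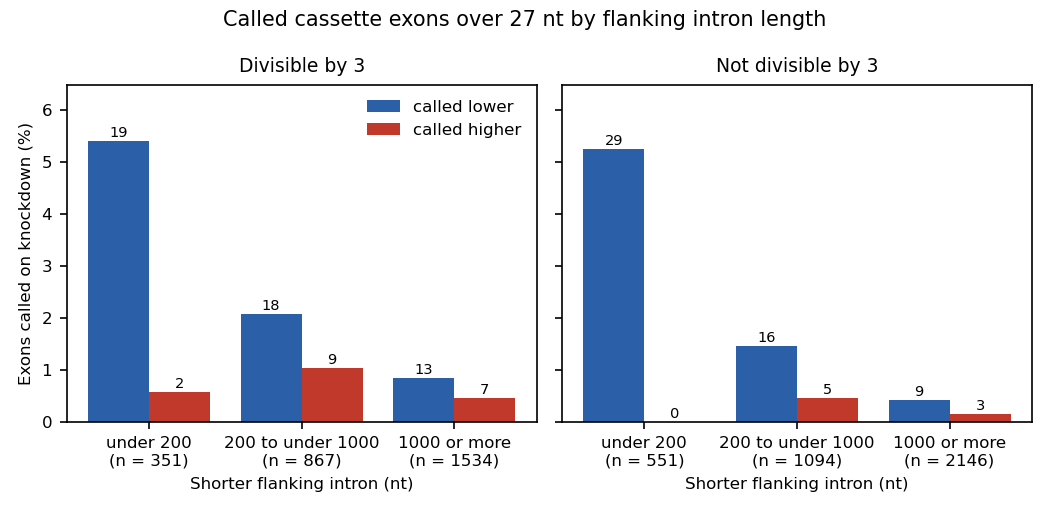
Percent of cassette exons over 27 nt called lower (blue) or higher (red) on knockdown (vertical axis, from 0) by the length of the shorter flanking intron in nt (horizontal axis), for exons divisible by 3 (left) and for the others (right); numbers above bars are exons called. The share called lower falls from left to right within both panels, with 19, 18 and 13 exons on the left and 29, 16 and 9 on the right.

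Length, level and base composition also differed among the called exons. The median length was 135 nt for exons called lower, 78 nt for exons called higher and 108 nt for all. By length, 8 of 424 exons of up to 60 nt were called lower (1.89%) and 7 higher. Of 1231 exons over 60 and up to 120 nt, 15 were called lower (1.22%) and 10 higher. Of 1013 exons over 120 and up to 300 nt, 25 were called lower (2.47%) and 1 higher. Of 84 exons over 300 nt, 2 were called lower (2.38%) and 0 higher. Cassette exons that do not keep the frame had 1.58%, 1.36%, 1.52% and 0.719% called lower in these classes. By control level, 32 of 584 exons at 20% to 80% were called lower and 16 higher. Of 1869 exons over 80%, where a rise of 15 points has little or no room, 18 were called lower and 1 higher. Of 299 exons under 20%, where a fall of 15 points has little or no room, 0 were called lower and 1 higher. The counts of falls and rises over all exons thus depend on their level. The median content of G and C was 56.5% in 42 matched exons called lower, 47.3% in 16 called higher and 50.5% in all 2161 matched exons. The last base of the exon was G in 88.1% of the exons called lower, 62.5% of those called higher and 79.6% of all, and the last 3 bases were CAG in 33.3%, 12.5% and 23.8%. Of the matched exons, 38 of 42 called lower and 15 of 16 called higher were coding, beside 1855 of all 2161. How far these features and intron length go together was not tested.

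Retention of the flanking introns was measured as its own event for some of these exons. For the 50 exons called lower, 26 flanking introns of 20 exons were among the tested events. All 26 had a positive difference of retention, knockdown minus control, with a median of 6.07 points, and 3 (11.5%) were called, beside 1.59% of all tested introns. Around exons that were not called, 64.0% of 985 introns had a positive difference, with a median of 1.03 points, and 1.73% were called. The 4 introns beside exons called higher had differences from -1.69 to -0.07 points. The 88 nt intron upstream of the called exon of Ppp1r16a, a regulator of protein phosphatase 1, was retained at 50.1% after knockdown and 22.9% in control, while the exon fell by 15.8 points. The 83 nt intron downstream of the called exon of Stx4a, a syntaxin of the plasma membrane, was retained at 60.7% after knockdown and 34.2% in control, and the 278 nt intron upstream of that of Kat5, a histone acetyltransferase, at 28.8% after knockdown and 10.4% in control. Their limma adjusted p-values were 0.0125, 0.0252 and 0.0198. Exon and intron values come from the same libraries and may share reads at a junction, so they are not independent measurements.

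Each line was then examined alone. The lines share no library, although same-numbered replicates of both lines deviated together to a small extent (Pearson's r across events of 0.0417 to 0.221). In the containing line 17 exons passed the limma test on knockdown, 13 lower and 4 higher, beside 0.338% of all tested events in either direction, 0.141% lower and 0.197% higher. An unadjusted p under 0.05 was found for 505 exons (18.4%), beside 13.5% of all tested events. In the lacking line 0 passed by limma, beside 0.0207% of all tested events, while 342 (12.4%) had an unadjusted p under 0.05, beside 10.5% of all tested events. The authors' deposited table of splicing events calls 67 there and 104 in the containing line. With the replicate number as a block the counts were 35 and 5, the 5 being exons of Kdm5c, Sap30bp, Tbc1d23, Zfp187 and BC023814. The count of 17 was 0 without either control replicate of that line, 3 without either control replicate of the lacking line, 4 without the second knockdown replicate of the containing line, 6 and 8 without the first and the second rescue replicate of the lacking line, and 11 without the second rescue replicate of the containing line. The count of 0 was 17 without the first knockdown replicate of the lacking line. For the difference of the knockdown effect between the lines, 0 exons passed by limma, beside 0.0% of all tested events. An unadjusted p under 0.05 was found for 98 (3.56%), beside 3.2% of all tested events.

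In the lacking line, whose libraries entered the choice through the spread shared by the fit and not through the difference tested, knockdown minus control had the sign seen in the containing line for all 17 exons. The median difference, signed so that the direction in the containing line is positive, was 13.5 points after knockdown, and it was 8.62 points for rescue minus control. Per replicate the median over control was 8.46 and 7.60 points after rescue and 13.5 and 14.0 points after knockdown. Rescue minus knockdown had a median of -7.17 points and pointed toward control in 11 of 17 exons. With a wider choice made after seeing the data, an unadjusted p under 0.01 and 15 points in the containing line (1.97% of all tested events), 96 exons were taken. In the lacking line 95 of these kept their direction, with a median of 13.7 points after knockdown and 8.28 points after rescue, both over control. By the same criterion 55 exons were taken in the lacking line (1.29% of all tested events). In the containing line 53 of these kept their direction, with a median of 18.2 points after knockdown and 11.8 points after rescue, both over control. Rescue minus knockdown pointed toward control in 81 of the 96 and in 42 of the 55.

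Values after rescue differed from exon to exon. In the lacking line the Med25 exon was at 78.1% and 77.3% after rescue, above both knockdown replicates and below both controls, while in the containing line it was at 61.04% and 58.9% after rescue, within the range of the knockdown replicates. The Numa1 exon was at 80.2% and 80.2% after rescue in the lacking line and at 66.7% and 67.4% after rescue in the containing line, between the knockdown and control replicates in both. The Ext2 exon was at 17.3% and 20.6% after rescue, against 41.9% and 35.2% after knockdown, in the lacking line, and at 18.4% and 19.0% after rescue, against 32.5% and 31.0% after knockdown, in the containing line. The exon of Pcyt2, an enzyme of phosphatidylethanolamine synthesis, averaged 52.2% after rescue, 52.7% after knockdown and 66.7% in control in the lacking line, and 54.6%, 52.1% and 76.7% in the same order in the containing line. Its rescue and knockdown means thus lay within 2.44 points of each other in both lines.

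Against the whole set, rescue moved few exons past the threshold. Rescue against knockdown gave 1 exon in the lacking line (limma, 0.00345% of all tested events), exon 3 of Sap30bp itself. There, 173 of the 2752 exons (6.29%) had an unadjusted p under 0.05, beside 8.57% of all tested events. The same comparison gave 0 in the containing line (0.0% of all tested events). An unadjusted p under 0.05 was found there for 200 exons (7.27%), beside 6.84% of all tested events. The authors' deposited table of splicing events calls 18 and 6 of the 2752 exons for these comparisons. Rescue against control gave 1 exon in the lacking line (0.00345% of all tested events), again exon 3 of Sap30bp at -81.7 ± 3.01 points (limma adjusted p = 5.08e-07). There, 185 exons (6.72%) had an unadjusted p under 0.05, beside 5.58% of all tested events. Rescue against control gave 0 in the containing line (0.0% of all tested events). An unadjusted p under 0.05 was found there for 375 exons (13.6%), beside 8.39% of all tested events. The difference of the rescue effect between the lines gave exon 3 of Sap30bp alone (0.00345% of all tested events). For this difference, 155 exons (5.63%) had an unadjusted p under 0.05, beside 5.27% of all tested events. Without the first knockdown replicate of the containing line, rescue against knockdown called 2 exons there.

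**Figure D4:**
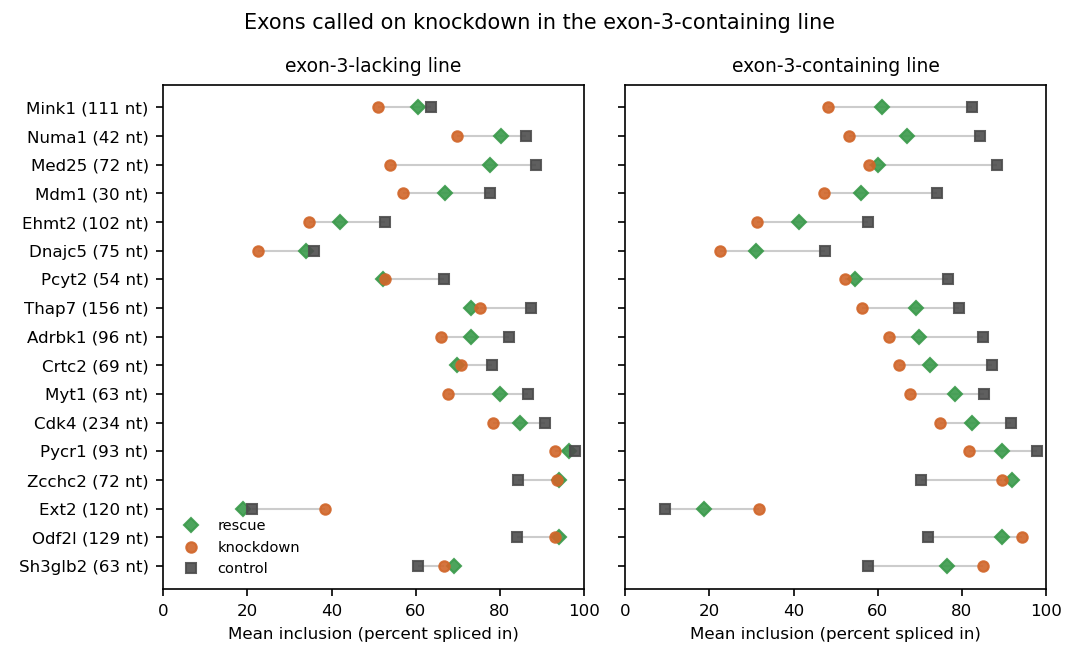
Mean inclusion in percent spliced in (horizontal axis) after rescue (green diamonds), after knockdown (orange circles) and in control (grey squares) for the 17 exons called on knockdown in the containing line, shown for the lacking line (left) and the containing line (right); grey lines join knockdown and control means of 2 replicates. In the left panel, whose libraries entered the choice of exons only through the shared spread, knockdown lies on the same side of control as in the right panel for all 17, and rescue lies closer to control than knockdown does for 11.

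Abundance of the host genes was read from the authors' own test. In the authors' deposited table, 0 of 45 genes with an exon called lower and 0 of 18 with an exon called higher passed an FDR of 0.05 in both lines with one sign, beside 32 of 1913 host genes of all the exons and 1.57% of all genes with a test. With so low a share among all genes, 0 of 45 and 0 of 18 do not set these host genes apart. The Med25 gene was at 29.4 RPKM after knockdown and 24.8 RPKM in control in the lacking line, and at 29.7 RPKM after knockdown and 27.4 RPKM in control in the containing line, by the authors' deposited table. Sapcd1, the host of the exon listed under Ng23, had the lowest fold changes among the hosts of named exons in the authors' deposited table, with log2 values of -1.10 (FDR 0.158) and -1.12 (FDR 0.111). Rbm17, the partner of SAP30BP, had log2 fold changes of 0.22 (FDR 0.879) and 0.21 (FDR 0.843) in the authors' deposited table.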

How the data were processed

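Splicing was measured in 12 RNA-seq libraries by the authors as percent spliced in, in an inclusion table of vast-tools on mm9 per the file headers. The vast-tools version was not given in the sources used here, nor was the coverage a value needed. An expression table that the authors deposited holds 1 RPKM value per group, with the replicates combined, a log2 fold change and a p-value with FDR per comparison, made with Salmon 0.14.1 and edgeR per the submitters' processing notes. A second table deposited by the authors lists 2175 splicing events with differences in points and a yes or no call for each comparison, used here only to count their calls. There were 0 unused columns of per-sample values.

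From the percentages, limma 3.58.1 in R 4.3.3 was fitted over all 12 libraries with 6 group means and trended, robust empirical Bayes variances. First sites of alternative splice site groups, 37194 entries, were not used. An event was kept with a value in 12 libraries and a mean of 2% to 98%, which left 28980, and p-values were adjusted by Benjamini-Hochberg over these. A call needed an adjusted p under 0.05 and 15 points. The procedure was run on simulated data with independent noise, in which only events of middle inclusion were changed. Changes in exons of high or low inclusion were not covered by it. The exons, gene lists and features were chosen with earlier results of these data known. Exons named are exon 3 of Sap30bp, the 16 largest falls and 10 largest rises on knockdown, up to 5 in each direction for other contrasts and up to 5 called per gene list; the P4ha2 pair and the host examples were added after their values were seen, and 1 exon that the rule names is not reported here. Tables were joined in Python 3.11.15 with pandas 2.3.3.

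Same-numbered replicates of a line deviated together from their group means. Pearson's r across events was 0.310 and 0.206 between knockdown and control and at least 0.149 for every other pair of groups within a line. Between groups of different lines it was 0.0417 to 0.221, so the ranges overlap. Unless another setting is named, values and calls come from the fit without the replicate number. A block for that number was fitted as an alternative. Flanking introns came from the coordinates in the inclusion table. Exon sequences came from GENCODE M21, matched by chromosome, exon length and the lengths of both flanking introns, which placed 2161 of 2752 exons. Other alternatives were a difference of 10 points, the logit scale bounded at 1% and 99%, no filter on the mean, values in at least 10 libraries, no variance trend, and each library left out.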

Additional observations from a re-analysis of the deposited data

Results flagged for a closer look

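Exon 3 of Sap30bp stood out because its inclusion after rescue differed between the lines, which the cDNAs fix, since 1 lacks this exon, the other holds it and their reads count toward it. Rescue minus knockdown in the lacking line less the same in the containing line was -64.8 points, with a limma adjusted p of 0.000261. Knockdown minus control of the same exon also had opposite signs in all replicates of the lines, with a difference of -20.98 points between them, which did not pass the limma test (adjusted p = 1.0). Any reads from uninduced cDNA cannot be told apart from endogenous reads in these values.

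For 2 further exons, rescue moved every replicate one way in the lacking line and the opposite way in the containing line. In the 63 nt exon of Sh3glb2, which encodes an endophilin, rescue minus knockdown differed by 10.85 points between the lines (limma adjusted p = 0.933). In the 66 nt exon of P4ha2 it differed by 11.8 points (limma adjusted p = 0.945). Neither difference passed the test.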

How the results depend on the processing

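The count of 68 exons called on knockdown over both lines was 120 at a smallest difference of 10 points, 4 without the filter on the mean and 24 to 80 with 1 library left out. The 17 exons of the containing line became 4 on the logit scale, 1 without the filter on the mean, 8 with values in at least 10 libraries and 0 to 20 with 1 library left out. The 0 exons of the lacking line became 1 at 10 points, 8 without the variance trend and 0 to 17 with 1 library left out. Under the replicate block, which uses the pairing, these 3 counts were 76, 35 and 5, and no other count moved by over 1.5 times. Rescue against knockdown gave 0 to 2 exons in the containing line and 1 to 1 in the lacking line with 1 library left out, and rescue against control gave 0 to 0 and 1 to 1; the differences of the knockdown and rescue effects between the lines gave 0 to 0 and 1 to 1. The median of 13.5 points in the lacking line, for exons called in the containing line, was 12.2 at 10 points, 14.5 on the logit scale, 16.3 without the filter on the mean, 12.4 with values in at least 10 libraries, 14.4 under the replicate block, 12.6 without the variance trend and 7.01 to 17.2 with 1 library left out, with no value where 0 exons were called. The share of called exons with a flanking intron under 200 nt, 30.9%, was 50% without the filter on the mean and 28.6% to 41.7% with 1 library left out. Of the 35 exons called among those the naming rule picks, 32 lost the call without the filter on the mean, 2 to 21 lost it with 1 library left out and 14 kept it whichever library was left out, while 0 changed direction. The causes were not tested. The read depth behind the values is unknown, and with 2 libraries a group the spread rests on the fit shared by all groups.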
